A study of Homo sapiens with 9 samples.

Results

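The 8 genes described here are TMEM60, AP000356.5, GPC2, REC8, GGT1, PFN2, ZNF117 and SEH1L, out of 22295 entries in the expression table. They were chosen by their FPKM values in the 3 dpi libraries, as those that differed most consistently between the sh-Ptbp1-3d and the sh-Luci-3d libraries, before or after a correction for GC content, with the PTBP genes and SRSF3 set aside. The difference between these groups therefore chose the genes and is given as a description without a test, and the questions put to each gene were whether the difference held in every library and whether it was still there at 7 dpi (days post infection). U251, an established human glioblastoma line, was infected with lentivirus that carried an sh-RNA against luciferase or against PTBP1. The luciferase control, without a target in human cells, is sh-Luci-3d, and the PTBP1 groups are sh-Ptbp1-3d and, later, sh-Ptbp1-7d. Total RNA was taken at 3 or 7 dpi, 3 libraries per group. The paper's culture protocol moved infected cells at 2 dpi into neuronal induction medium, which contained forskolin and dorsomorphin. The paper does not state the medium of the sequenced cells separately. Where the protocol held for them, the 7 dpi cells had been in this medium for longer. No 7 dpi sh-Luci library was analysed here, so in every comparison with sh-Ptbp1-7d the knockdown, the days after infection and the time in the medium cannot be told apart. Nothing in the labels says that the 3 libraries of a group came from separate cultures, so the p-values measure the spread between libraries, which may be technical.

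PTBP1 is an RNA-binding protein that holds back many exons from being spliced into messenger RNA in cells other than neurons, and its loss is known to change both splicing and RNA stability. The 8 genes belong to no common pathway. TMEM60 encodes a small membrane protein; GPC2 a glypican, a heparan sulfate proteoglycan anchored to the surface of developing neurons; REC8 the cohesin subunit that holds sister chromatids together in meiosis; GGT1 the cell-surface enzyme that begins the breakdown of extracellular glutathione; PFN2 the profilin of neural tissue, which binds actin monomers; ZNF117 a zinc finger protein of the Krüppel type; and SEH1L a subunit shared by the nuclear pore and the GATOR2 complex of nutrient sensing. AP000356.5 is a name after a genomic clone, and no function is known for it here.

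The levels are FPKM, read fragments divided by the length of a transcript in kilobases and by the number mapped in that library, so they can be compared between genes per length, but the depth behind them is unknown. The targeted gene checked the labels: the mean level of PTBP1 (± SD, n = 3, as for all means below) fell from 115.7 ± 7.58 FPKM under sh-Luci-3d to 63.9 ± 2.67 at 3 dpi and 50.5 ± 0.645 at 7 dpi of the knockdown. Of the 7 glioma markers, GFAP and S100B were below 1 FPKM as means of every group, and vimentin (VIM), at 4168 FPKM under sh-Luci-3d and 4381 and 1169 FPKM at 3 and 7 dpi of the knockdown, was the highest. Several of them moved over the same interval as the 7 dpi changes given below: from 3 to 7 dpi VIM fell by 1.91, CD44 by 1.41 and EGFR by 0.82 on the log2 scale (limma adjusted p = 9.79e-08, 1.12e-06 and 0.00119) and S100B rose by 2.08 (adjusted p = 0.00202), while SOX2, at 106, 125 and 145 FPKM, passed the test against sh-Luci-3d at 7 dpi (0.46, adjusted p = 0.00184) but not from 3 dpi (adjusted p = 0.0733). The sum of the 7 markers ran from 4429 to 4553 FPKM in sh-Luci-3d, from 4537 to 4846 FPKM in sh-Ptbp1-3d and from 1358 to 1481 FPKM in sh-Ptbp1-7d. The 4 blood markers were all below 1 FPKM as group means, and their sum was between 0.454 and 1.18 FPKM in every library. Of 4 neuronal markers, SNAP25 was higher in all 6 knockdown libraries than in any sh-Luci-3d library, with means of 1.27, 2.68 and 4.32 FPKM (adjusted p = 0.36 at 3 dpi and 9.16e-05 at 7 dpi against sh-Luci-3d), SYT1 was at 5.71, 6.05 and 5.63 FPKM with overlap, RBFOX3 was below 1 FPKM as group means, and STMN2 was at 11.5 FPKM in sh-Ptbp1-3d replicate 3 and listed at 0 in the other libraries. The sum of the 4 ran from 5.92 to 7.98 FPKM with sh-Luci-3d, from 8.26 to 21.3 FPKM in sh-Ptbp1-3d and from 9.10 to 10.9 FPKM in sh-Ptbp1-7d. The part of these markers in the results on the 8 genes was not tested. Among the control libraries, sh-Luci-3d replicate 3 set how many genes were called at 3 dpi: 5 of 15551 passed limma's FDR of 0.05 with it and 986, or 6.34%, without it. In bulk RNA, fewer cells with a transcript and less of it per cell cannot be told apart.

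Of the 8 genes, 5 were higher in sh-Ptbp1-3d (TMEM60, AP000356.5, GPC2, PFN2 and SEH1L) and 3 were lower (REC8, GGT1 and ZNF117). In all 8 the 3 sh-Ptbp1-3d libraries lay outside the range of the 3 sh-Luci-3d libraries, against 10.8% of the 15551 genes tested (mean level 0.1 FPKM or more), from which nothing can be read since this contrast chose the genes. The distance between the nearest libraries of both groups differed widely: the lowest sh-Ptbp1-3d value was 1.82 times the highest sh-Luci-3d value for GPC2 and 1.68 times for TMEM60, but 1.18 times for SEH1L and 1.15 times for PFN2. Ranked by limma's moderated t over 15547 genes, with the PTBP genes and SRSF3 set aside, TMEM60, AP000356.5, REC8, GGT1 and GPC2 took ranks 1 to 5, while ZNF117, PFN2 and SEH1L were at 13, 37 and 76. With GC content and transcript length corrected for, SEH1L moved up to rank 6, ZNF117 to 7 and PFN2 to 15 of 13324, GGT1 moved down to 9 and GPC2 to 14, TMEM60 and REC8 stayed at 1 and 3, and AP000356.5 could not be ranked. The first gene outside the set was an assembled locus at rank 6, with a log2 difference of 1.32, before the correction and DPYD at rank 2, with a log2 difference of -0.59, after it, so the 8 genes are not simply the top of either order.

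**Figure D1:**
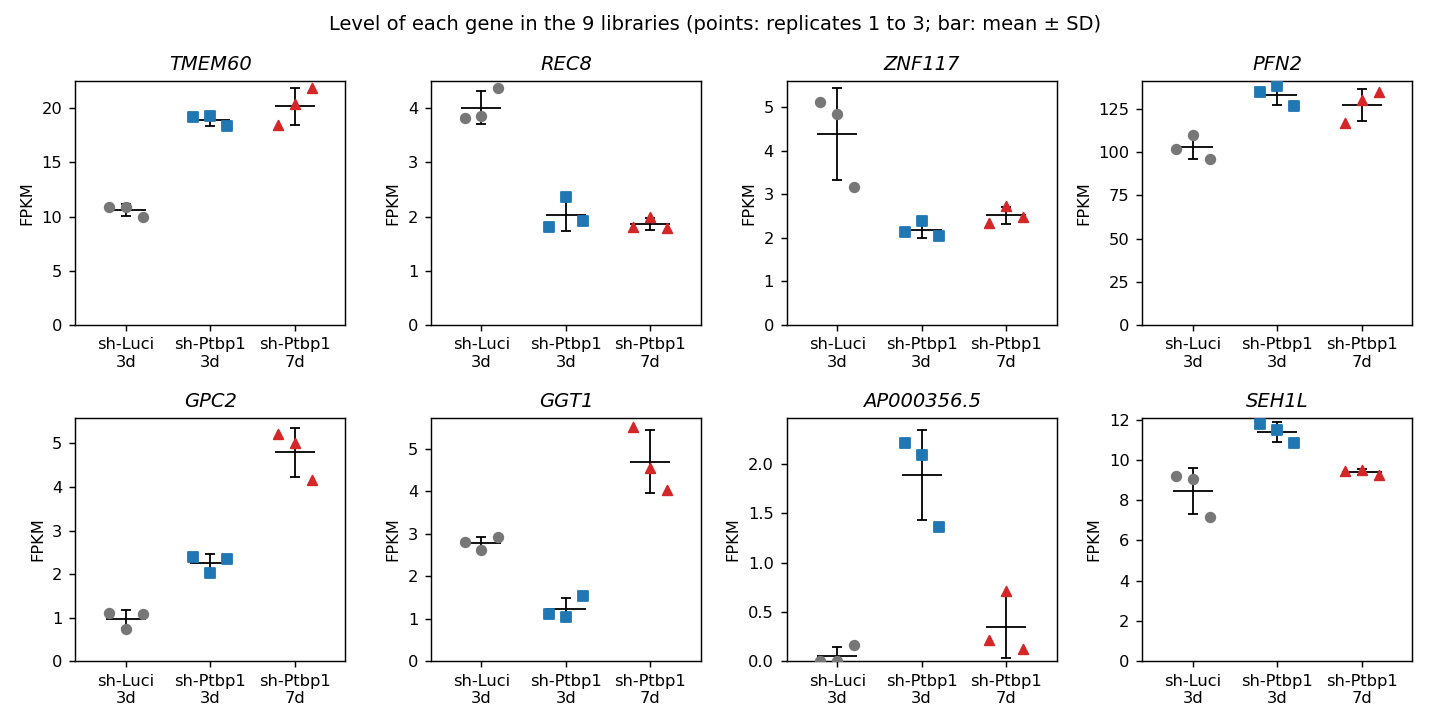
Level of each of the 8 genes in FPKM (vertical axis, from 0) in the 3 libraries of sh-Luci-3d (grey circles), sh-Ptbp1-3d (blue squares) and sh-Ptbp1-7d (red triangles), with the mean ± SD as bars. TMEM60, REC8, ZNF117 and PFN2 stayed near their 3 dpi level, GPC2 rose further from 2.25 to 4.79 FPKM, GGT1 went from 1.22 to 4.69 FPKM, and the 7 dpi means of AP000356.5 and SEH1L lay between those of both 3 dpi groups.

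TMEM60 was the clearest of the genes that kept their day 3 level. It lies on chromosome 7 from 77793728 to 77798580, on the minus strand (GRCh38, GENCODE v29, as for all positions below). Its levels were 10.9, 10.9 and 9.93 FPKM in the sh-Luci-3d libraries, 19.2, 19.3 and 18.3 FPKM in sh-Ptbp1-3d and 18.4, 20.4 and 21.8 FPKM in sh-Ptbp1-7d. All 6 knockdown libraries were above all control libraries, and those of 3 and 7 dpi overlapped. The mean went from 10.6 ± 0.551 to 18.9 ± 0.534 FPKM at 3 dpi, 1.79 times, or 0.84 ± 0.087 on the log2(FPKM + 0.1) scale (limma's standard error, here and below), and stood at 20.2 ± 1.71 FPKM at 7 dpi. The later change, from 3 to 7 dpi, was 0.09 ± 0.087 on this scale (limma adjusted p = 0.416), and sh-Ptbp1-7d was above sh-Luci-3d by 0.93 (adjusted p = 9.03e-06), a test that shares its control libraries with the choice of the gene, as do all tests against sh-Luci-3d below. The tests from 3 to 7 dpi share the sh-Ptbp1-3d libraries with that choice, so neither kind of test is independent of it.

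TMEM60 starts next to PHTF2, a gene read in the opposite direction whose start is 211 bases away, so that the promoters of both genes share one stretch of DNA. The bases between their starts are shown because this stretch is the same for both genes while their levels parted. The stretch is on the strand of TMEM60 at chr7:77798581-77798772 (RefSeq, GRCh38.p14), and capitals mark GC boxes (GGGCGG or CCGCCC) and CCAAT boxes (CCAAT or ATTGG), searched on both strands.
TMEM60 and PHTF2: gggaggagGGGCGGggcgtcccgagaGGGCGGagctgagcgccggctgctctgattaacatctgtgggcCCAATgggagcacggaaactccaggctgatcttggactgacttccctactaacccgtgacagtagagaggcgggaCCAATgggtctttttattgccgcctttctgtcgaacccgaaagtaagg
These 192 bases held 2 GC boxes and 2 CCAAT boxes, which do not overlap each other, and 59.4% G or C. Over the same length before the start, 39.7% of 35116 RefSeq promoters held a GC box and 27.3% a CCAAT box, and their median GC content was 59.4%. PHTF2 was at 11.6, 9.39 and 7.92 FPKM in the sh-Luci-3d libraries, 8.94, 10.5 and 9.13 FPKM in sh-Ptbp1-3d and 7.09, 7.68 and 6.15 FPKM in sh-Ptbp1-7d. At 3 dpi its libraries overlapped with those of sh-Luci-3d (log2 difference -0.00051 ± 0.14, limma adjusted p = 1), and at 7 dpi they were below both 3 dpi groups without passing the FDR of 0.01 (adjusted p = 0.0233 against sh-Ptbp1-3d and 0.0231 against sh-Luci-3d). TMEM60 had no run of 50 bases in common with another gene of GENCODE v29.

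REC8, on chromosome 14 from 24171853 to 24180257 on the plus strand, was lower in the knockdown at both times. It was at 3.81, 3.85 and 4.37 FPKM in the sh-Luci-3d libraries, 1.80, 2.35 and 1.91 FPKM in sh-Ptbp1-3d and 1.80, 1.99 and 1.79 FPKM in sh-Ptbp1-7d. The highest knockdown library, at 2.35 FPKM, was below the lowest control library, and the 3 and 7 dpi libraries overlapped. The means were 4.01 ± 0.312, 2.02 ± 0.291 and 1.86 ± 0.111 FPKM, a log2 difference of -0.96 ± 0.14 at 3 dpi. From 3 to 7 dpi the difference was -0.11 (limma adjusted p = 0.532), and against sh-Luci-3d it was -1.07 at 7 dpi (adjusted p = 8.96e-05).

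The genes around REC8 took other courses. IRF9, a transcription factor of the interferon response that ends 5287 bases before REC8 on the same strand, was at 6.66, 8.81 and 7.04 FPKM in the sh-Luci-3d libraries, 7.77, 8.71 and 6.07 FPKM in sh-Ptbp1-3d and between 12.0 and 14.9 FPKM in sh-Ptbp1-7d. It did not separate the 3 dpi groups and rose from 3 to 7 dpi by 0.86 on the log2 scale (limma adjusted p = 0.00084), while REC8 stayed low. IPO4, a nuclear import receptor read from the opposite strand, overlaps the end of REC8 by 39 exon bases, 1.01% of those of REC8. There the reads of both genes cannot be told apart without strand. The mean of IPO4 was 14.8 FPKM in sh-Ptbp1-3d against 12.6 under sh-Luci-3d, with overlap. Its level scattered from 5.23 to 14.3 FPKM at 7 dpi (limma adjusted p = 0.0634 from 3 to 7 dpi).

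ZNF117 lies on chromosome 7 from 64971776 to 65006684, on the minus strand. Its levels were 5.13, 4.84 and 3.17 FPKM in the sh-Luci-3d libraries, 2.13, 2.39 and 2.04 FPKM in sh-Ptbp1-3d and 2.34, 2.74 and 2.47 FPKM in sh-Ptbp1-7d. The control libraries scattered more than the others, with replicate 3 the lowest, but even that one was above all 6 knockdown libraries. The means were 4.38 ± 1.06, 2.19 ± 0.183 and 2.52 ± 0.202 FPKM, and the log2 difference at 3 dpi was -0.94 ± 0.18. It was -1.16 without sh-Luci-3d replicate 3. From 3 to 7 dpi the level did not pass the test (0.20, limma adjusted p = 0.381), and at 7 dpi it was below sh-Luci-3d by a log2 difference of -0.75 (adjusted p = 0.00487), a call lost in 9 of 20 alternatives (adjusted p up to 0.023).

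ZNF117 shares 372 exon bases with ERV3-1, a gene from an endogenous retrovirus on the same strand, which is 3.48% of the exon bases of ZNF117 and 8.13% of those of ERV3-1, so part of their reads cannot be assigned with certainty. ERV3-1 was at 8.91, 7.06 and 5.93 FPKM in the sh-Luci-3d libraries, 4.69, 4.97 and 4.75 FPKM in sh-Ptbp1-3d and 4.29, 4.85 and 3.11 FPKM in sh-Ptbp1-7d. Its knockdown libraries were all below the control libraries too, by a log2 difference of -0.57 ± 0.18 at 3 dpi that did not pass the test over all genes (limma adjusted p = 0.544, and 0.0456 without sh-Luci-3d replicate 3) and of -0.83 at 7 dpi that did (adjusted p = 0.00279). The nearest other expressed genes behaved otherwise at 7 dpi. The zinc finger genes ZNF273 and ZNF92 rose from 3 to 7 dpi by 0.97 (adjusted p = 0.000457) and 1.09 (adjusted p = 0.000527) on the log2 scale, and both were then above sh-Luci-3d. At 3 dpi ZNF273 was at 0.838 to 0.904 FPKM against 0.975 to 1.30 in sh-Luci-3d, without overlap (adjusted p = 0.717).

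PFN2, on chromosome 3 from 149964904 to 150050788 on the minus strand, was by far the most abundant of the 8 genes. On the log2 scale it had the smallest day 3 difference of them. Its levels were 102.1, 110.2 and 96.3 FPKM in the sh-Luci-3d libraries, 134.9, 138.3 and 127.1 FPKM in sh-Ptbp1-3d and 117.0, 130.5 and 135.1 FPKM in sh-Ptbp1-7d. All knockdown libraries were above all control libraries, and 2 of the 3 libraries of 7 dpi lay inside the range of 3 dpi. The means were 102.9 ± 7.02, 133.4 ± 5.76 and 127.5 ± 9.40 FPKM, and the log2 difference at 3 dpi was 0.38 ± 0.083. The difference from 3 to 7 dpi was -0.067 (limma adjusted p = 0.531), a sign that turned with TPM and with quantile normalization. At 7 dpi PFN2 was above sh-Luci-3d by 0.31 (adjusted p = 0.00992), just past the FDR, and this call was lost in 14 of 20 alternatives (adjusted p up to 0.0692).

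GPC2 was higher at 3 dpi and rose again by 7 dpi. It lies on chromosome 7 from 100169606 to 100177372, on the minus strand. Its levels were 1.11, 0.739 and 1.08 FPKM in the sh-Luci-3d libraries, 2.40, 2.01 and 2.35 FPKM in sh-Ptbp1-3d and 5.21, 5.01 and 4.15 FPKM in sh-Ptbp1-7d. No library of one group reached the range of the next. The mean went from 0.977 ± 0.207 to 2.25 ± 0.208 and to 4.79 ± 0.561 FPKM, with a log2 difference of 1.14 ± 0.17 at 3 dpi, a further 1.05 from 3 to 7 dpi (limma adjusted p = 0.000497) and 2.20 against sh-Luci-3d at 7 dpi (adjusted p = 2.47e-06). Both 7 dpi calls held in all 20 alternatives. GPC2 had no run of 50 bases in common with another gene.

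GPC2 also shares its promoter stretch, with STAG3, a meiotic cohesin subunit whose start lies 190 bases away in the opposite direction. The bases between the starts are shown for the same reason as above, on the strand of GPC2 at chr7:100177382-100177562 (RefSeq, GRCh38.p14), with GC boxes and CCAAT boxes in capitals.
GPC2 and STAG3: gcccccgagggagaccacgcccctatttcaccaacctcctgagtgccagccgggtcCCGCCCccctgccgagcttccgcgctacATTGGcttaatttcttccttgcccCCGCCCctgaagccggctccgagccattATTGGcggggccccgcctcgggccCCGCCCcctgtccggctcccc
These 181 bases held 3 GC boxes and 2 CCAAT boxes and were 70.7% G or C, against a median of 59.1% over promoters of this length, of which 39% held a GC box and 26.3% a CCAAT box. STAG3 was at 1.80, 1.95 and 2.02 FPKM in the sh-Luci-3d libraries, 2.13, 2.03 and 1.62 FPKM in sh-Ptbp1-3d and 3.47, 3.12 and 2.11 FPKM in sh-Ptbp1-7d. It overlapped between the 3 dpi groups (log2 difference -0.0061 ± 0.19, limma adjusted p = 0.997), where GPC2 was higher in every knockdown library. At 7 dpi STAG3 was higher in 2 of 3 libraries than in any library of 3 dpi and did not pass the FDR of 0.01 (0.55, adjusted p = 0.0324). The meiotic REC8, whose protein works with STAG3 in meiotic cohesin, was lower over the same libraries, as given above.

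**Figure D2:**
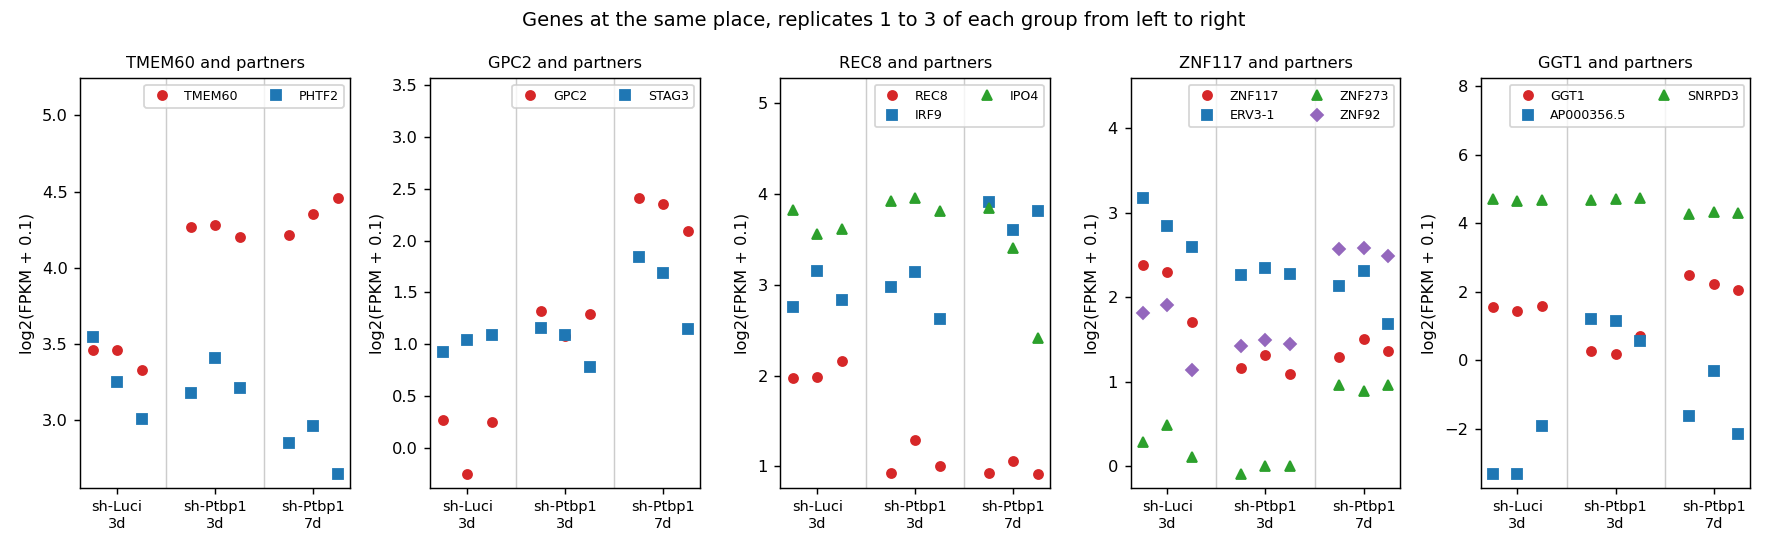
Levels as log2(FPKM + 0.1) (vertical axis) of TMEM60, GPC2, REC8, ZNF117 and GGT1 (red circles) and of partner genes (other symbols). Replicates 1 to 3 of each group are shown, with grey lines between groups. Partners lie at or near the same place, except ZNF273 and ZNF92, which are 40809 and 367114 bases from ZNF117. AP000356.5 shares only a clone name with loci at GGT1. At 3 dpi TMEM60 and GPC2 moved away from PHTF2 and STAG3, which overlapped between the groups, while ERV3-1 shifted with ZNF117.

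GGT1 was the gene whose difference turned. It lies on chromosome 22 from 24583750 to 24629005, on the plus strand. Its levels were 2.81, 2.62 and 2.92 FPKM in the sh-Luci-3d libraries, 1.12, 1.03 and 1.53 FPKM in sh-Ptbp1-3d and 5.50, 4.55 and 4.03 FPKM in sh-Ptbp1-7d. The sh-Ptbp1-3d libraries were the lowest and the sh-Ptbp1-7d libraries the highest, without overlap. The means were 2.78 ± 0.153, 1.22 ± 0.264 and 4.69 ± 0.745 FPKM, so that a log2 difference of -1.14 ± 0.17 at 3 dpi was followed by a rise of 1.86 from 3 to 7 dpi (limma adjusted p = 7.11e-06). Against sh-Luci-3d, GGT1 was higher at 7 dpi by 0.72 (adjusted p = 0.00443), a call lost in 8 of 20 alternatives (adjusted p up to 0.0243), while the rise from 3 to 7 dpi held in all 20.

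Of the 50-base runs of GGT1 transcripts, 35.9% also occur in other genes, among them GGT2 (14.4%), GGTLC2 and the overlapping SNRPD3 (4.94%), so its level is uncertain in part. GGT2 was below 0.01 FPKM and GGTLC2 at most 0.254 FPKM as group means. SNRPD3, a core protein of the splicing snRNPs read from the same strand, shares 306 exon bases with GGT1. It was at 25.1 to 25.8 FPKM under sh-Luci-3d, 25.8 to 26.4 in sh-Ptbp1-3d and 19.1 to 19.8 in sh-Ptbp1-7d, so it overlapped at 3 dpi and fell at 7 dpi by 0.42 on the log2 scale (limma adjusted p = 0.00039), where GGT1 rose.

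AP000356.5 followed the opposite course to GGT1. Under sh-Luci-3d its value was 0 in replicates 1 and 2 and 0.164 FPKM in replicate 3, against 2.21, 2.09 and 1.36 FPKM for sh-Ptbp1-3d and 0.220, 0.710 and 0.123 FPKM for sh-Ptbp1-7d. Every sh-Ptbp1-3d library was above every other library, with replicate 3 the lowest of them, and the 7 dpi libraries overlapped with sh-Luci-3d. The means were 0.0548 ± 0.0949, 1.89 ± 0.458 and 0.351 ± 0.315 FPKM. The log2 difference at 3 dpi, 3.82 ± 0.51, was set by the pseudocount, since it was 1.44 with a pseudocount of 1 and 6.16 with 0.01. The fall from 3 to 7 dpi was -2.34 on the log2 scale (limma adjusted p = 0.00308), a call lost in 7 of 18 alternatives (adjusted p up to 0.0479). The difference of 1.48 from sh-Luci-3d at 7 dpi did not pass the FDR of 0.01 (adjusted p = 0.0318), but did without sh-Luci-3d replicate 3, the only control library with a value above 0 (1.95, adjusted p = 0.00783). It was 0.95 without sh-Ptbp1-7d replicate 2, the highest library of 7 dpi (adjusted p = 0.126), and ran from 0.34 to 3.43 with pseudocounts of 1 and 0.01.

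AP000356.5 is not among the genes of GENCODE v29, so no position is given for it. The 4 genes of that annotation named after the same clone lie on chromosome 22 between 24598054 and 24653356, inside GGT1 or just behind its end. The summed level of GGT1 and AP000356.5, a quantity formed after their values were seen, was 2.81, 2.62 and 3.08 FPKM in the sh-Luci-3d libraries, 3.32, 3.13 and 2.89 FPKM in sh-Ptbp1-3d and 5.72, 5.26 and 4.15 FPKM in sh-Ptbp1-7d. The 3 dpi groups overlapped in this sum, which they did not for either gene alone. Nothing is read from that overlap, since the choice took a lower and a higher gene whose differences offset each other when added. Since FPKM divides each entry by its own length, the sum is not a sum of reads. Sums were also formed for ZNF117 with ERV3-1, where the 3 dpi groups did not overlap, and for REC8 with IPO4, where they did.

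SEH1L, on chromosome 18 from 12947133 to 12987536 on the plus strand, was higher at 3 dpi and nearer to the control level again at 7 dpi. It was at 9.19, 9.07 and 7.15 FPKM in the sh-Luci-3d libraries, 11.8, 11.5 and 10.8 FPKM in sh-Ptbp1-3d and 9.45, 9.49 and 9.24 FPKM in sh-Ptbp1-7d. The 7 dpi libraries lay between both 3 dpi groups without overlap, though only just above sh-Luci-3d replicates 1 and 2. The means were 8.47 ± 1.14, 11.4 ± 0.489 and 9.39 ± 0.139 FPKM, and the log2 difference at 3 dpi was 0.43 ± 0.11, or 0.31 without sh-Luci-3d replicate 3. The difference from 3 to 7 dpi, -0.27, did not pass the FDR of 0.01 (limma adjusted p = 0.0539), and did under median-ratio scaling, quantile normalization, the correction for GC content and length, and without sh-Luci-3d replicate 3 (adjusted p between 0.000138 and 0.00978). Against sh-Luci-3d the 7 dpi level differed by 0.16 (adjusted p = 0.244), and by 0.041 without sh-Luci-3d replicate 3 (adjusted p = 0.662). The flanking genes CEP192 and PTPN2 overlapped between the 3 dpi groups (adjusted p = 0.879 and 0.969), and 2.66% of the 50-base runs of SEH1L occur elsewhere.

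**Figure D3:**
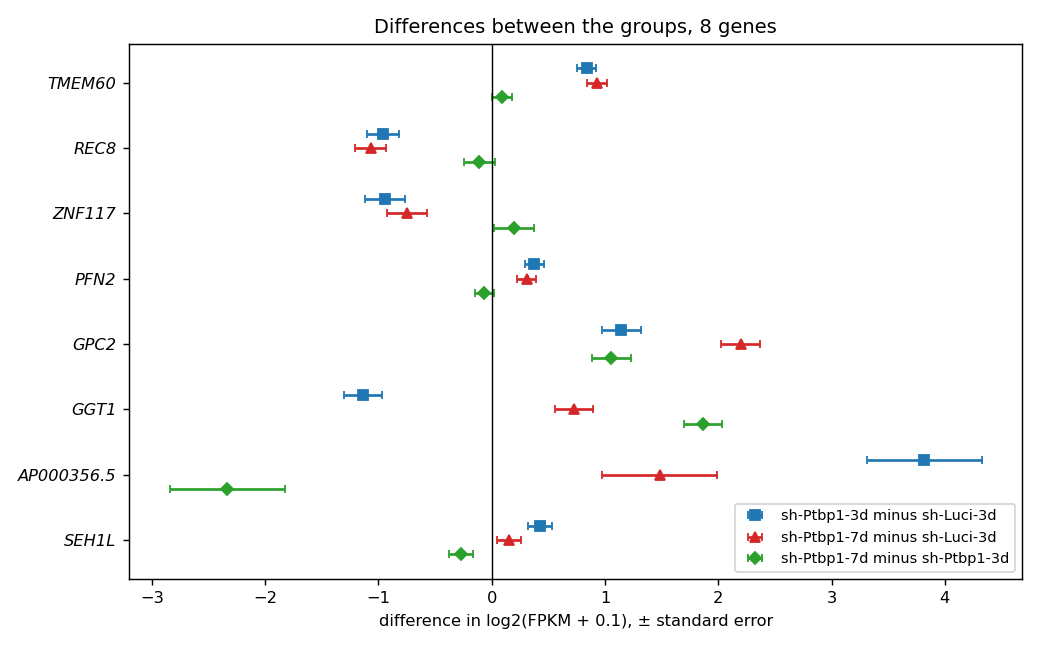
Differences in log2(FPKM + 0.1) (horizontal axis) with standard errors from limma for the 8 genes, for sh-Ptbp1-3d minus sh-Luci-3d (blue squares, the contrast that chose the genes), sh-Ptbp1-7d minus sh-Luci-3d (red triangles) and sh-Ptbp1-7d minus sh-Ptbp1-3d (green diamonds). Blue and red lie on the same side of 0 for 7 genes, and on opposite sides for GGT1, at -1.14 and 0.72.

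Set side by side, the log2 difference from sh-Luci-3d at 7 dpi was 111% of that at 3 dpi for TMEM60 and REC8, 82.2% for PFN2, 79.2% for ZNF117, 192% for GPC2, 38.8% for AP000356.5, 36.6% for SEH1L and -63.7% for GGT1; both differences share the sh-Luci-3d libraries. The shares of SEH1L and AP000356.5 were the least certain. That of SEH1L was 13.1% without sh-Luci-3d replicate 3 and between 9.69% and 58% over all alternatives. That of AP000356.5 was 24.9% without sh-Ptbp1-7d replicate 2, 23.3% with a pseudocount of 1 and 55.7% with 0.01. The share of GGT1 was -38.4% with GC content and length corrected for. At 7 dpi all 3 libraries were still beyond every sh-Luci-3d library on the day 3 side for TMEM60, GPC2, REC8, PFN2, ZNF117 and SEH1L, 2 of 3 were for AP000356.5 and 0 for GGT1. Groups did not overlap between 3 and 7 dpi of the knockdown for 4 of the 8 genes, beside 62.3% of all genes, nor between sh-Luci-3d and the 7 dpi knockdown for 7 of the 8, beside 55.9%. Between 3 and 7 dpi, 3 of the 8 genes passed an FDR of 0.01, GPC2 and GGT1 upwards and AP000356.5 downwards. That is 37.5%, beside 35.8% of all genes tested, and nothing is read from it about the 8 genes, whose sh-Ptbp1-3d values chose them. The direction split was 2 higher and 1 lower, beside 20.3% higher and 15.5% lower over all genes. Against sh-Luci-3d, 6 of the 8 passed, with TMEM60, GPC2, GGT1 and PFN2 higher and REC8 and ZNF117 lower, beside 35.6% of all genes (20.6% higher and 15.0% lower). The sh-Luci-3d values chose these genes too. So nothing is read from this count, nor from the 7 of the 8 that did not overlap with sh-Luci-3d at 7 dpi. The median of all genes was 0.092 above 0 from 3 to 7 dpi and 0.099 against sh-Luci-3d, and it was 0.19 and 0.18 under TPM.

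Over the places of the 7 genes with a position, 23 neighbouring or overlapping genes could be tested. They include the nearest expressed genes on either side, which lay up to 367114 bases away (ZNF92). At 3 dpi, 0 of them passed limma's FDR of 0.05, beside 0.0322% of all genes, and 1 had an unadjusted p below 0.05, beside 7.24%. Groups did not overlap at 3 dpi for 3 of them (ERV3-1, ZNF273 and TSC22D2), or 13%, beside 10.8% of all genes. Without sh-Luci-3d replicate 3, 3 of the 23 passed (ERV3-1 and ZNF92 lower, LAMTOR4 higher), beside 6.34% of all genes. Later, from 3 to 7 dpi, 9 passed the FDR of 0.01, 7 upwards and 2 downwards, or 39.1%, close to the 35.8% of all genes.

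The relatives of the 8 genes were taken as 6 lists by family or pathway, 113 genes of which 97 were tested. At 3 dpi 0 of the 97 passed limma's FDR of 0.05, and 5 had an unadjusted p below 0.05, beside 7.24% of all genes. Without sh-Luci-3d replicate 3, 13 of the 97 passed, 7 higher and 6 lower, which is 13.4% beside 6.34% of all genes, and those 13 had log2 differences between -0.71 (ERV3-1) and 0.45 (VASP). Between 3 and 7 dpi 57 of them passed the FDR of 0.01, 20 upwards and 37 downwards. That is 58.8%, with 20.6% higher and 38.1% lower, beside 35.8% of all genes, with 20.3% higher and 15.5% lower. With the filter raised to 1 FPKM, 42.2% of 11993 genes were called, and the lists were not counted under that filter. The lists were also chosen with earlier results of these data known. By list, the share called was 52.6% for cohesin, 70% for heparan sulfate, 69.2% for glutathione, 72.7% for actin, 20% for the pore and GATOR complexes and 62.5% for the zinc finger cluster. Counts and medians are descriptions and were not tested as sets.

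Among cohesin and its regulators (19 tested), the relatives of REC8, 3 rose and 7 fell from 3 to 7 dpi, with a median of -0.22. The falls were largest for PTTG1, the securin that restrains separase (-1.55 on the log2 scale, limma adjusted p = 1.44e-07), for the separase ESPL1 (-1.19, adjusted p = 1.85e-05) and for SGO2, a shugoshin that protects cohesin (-1.12, adjusted p = 9.84e-05). The acetyltransferase ESCO1 rose by 1.13 and the cohesin loader MAU2 by 0.88 (adjusted p = 0.000462 and 4.19e-06). RAD21, the subunit that REC8 replaces in meiosis, was at 56.0, 55.5 and 53.6 FPKM in the 3 groups (adjusted p = 0.657 from 3 to 7 dpi).

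Among proteoglycans with heparan sulfate, their ligands and their enzymes (20 tested), the relatives of GPC2, 8 rose and 6 fell, with a median of 0.19. The growth factors midkine (MDK, 3.34) and pleiotrophin (PTN, 2.05), which bind heparan sulfate, and the syndecan SDC3 (1.81) rose most (limma adjusted p = 6.34e-08, 1.96e-08 and 1.5e-06). The collagen COL18A1 (-2.19) and NOTUM (-2.14), an enzyme that releases glypicans and inactivates Wnt proteins, had the largest falls (adjusted p = 6.61e-06 and 0.000664), though NOTUM was at most 0.473 FPKM as a group mean. Agrin (AGRN), an abundant proteoglycan of the list, was at 87.0, 97.8 and 156.8 FPKM (0.68 from 3 to 7 dpi, adjusted p = 0.00152). Of the other glypicans, GPC4 rose by 1.06, as GPC2 did by 1.05, while GPC1 was lower by a log2 difference of -1.61 and GPC6 of -1.24, so the glypicans did not move as one. The means of GPC1 were 47.6, 58.0 and 19.0 FPKM and those of GPC4 12.6, 13.2 and 27.7 FPKM, both well above GPC2 in every group per length.

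Among genes of glutathione and the gamma-glutamyl cycle (13 tested), the relatives of GGT1, 2 rose and 7 fell, with a median of -0.55. The cystine transporter SLC7A11 had the largest fall (-1.82, limma adjusted p = 5.63e-06), followed by the glutathione reductase GSR (-1.09, adjusted p = 1.46e-06) and CHAC2, which cleaves glutathione inside the cell (-1.04, adjusted p = 0.000354). The aminopeptidase ANPEP, which acts after GGT1 on the outside of the cell, was at 29.8, 27.0 and 13.3 FPKM (-1.01, adjusted p = 2.36e-06). SLC3A2, the partner chain of SLC7A11 and the most abundant of the list (-0.62, adjusted p = 0.00299), and the glutathione synthetase GSS, the next most abundant (-0.55, adjusted p = 6.59e-05), also fell. The rises were those of GGT7, at 17.6, 20.1 and 31.9 FPKM (0.66, adjusted p = 0.000258), and of CHAC1, which also cleaves glutathione (0.59, adjusted p = 0.00067). GGT1 rose from 3 to 7 dpi where most tested genes of its list fell.

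Among actin monomer and filament-end proteins (22 tested), the relatives of PFN2, 1 rose and 15 fell, with a median of -0.58. PFN1, the widespread profilin, was lower at 7 dpi than at 3 dpi by a log2 difference of -1.20 (limma adjusted p = 7.56e-06), the severing factor DSTN by -1.75 (adjusted p = 2.24e-06), the monomer-binding TWF2 by -1.29 (adjusted p = 1.23e-06) and the formin DIAPH3 by -1.53 (adjusted p = 1.42e-05). ACTB itself fell from 2603 to 1457 FPKM (adjusted p = 7.98e-05). EVL, of the Ena/VASP family, was the one that rose (0.86, adjusted p = 0.000119). PFN2 was at 127.5 FPKM at the end of this interval and differed from 3 dpi by less than its standard error. A higher level at 3 dpi was not particular to PFN2 in this list. CAP2 was at 29.8, 31.0 and 23.7 FPKM in the sh-Luci-3d libraries and 39.5, 39.9 and 38.7 FPKM in sh-Ptbp1-3d, without overlap. Its log2 difference at 3 dpi was 0.49 (limma adjusted p = 0.271), against 0.38 for PFN2. From 3 to 7 dpi CAP2 was lower by a log2 difference of -0.78 (adjusted p = 8.93e-05).

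Of the nuclear pore Y complex and the GATOR complexes (15 tested), the relatives of SEH1L, 1 rose and 2 fell. NPRL2 of GATOR1 rose by 0.74 (limma adjusted p = 0.00141), and the pore subunits NUP107 and NUP37 were lower by log2 differences of -0.54 and -0.46 (adjusted p = 0.00247 and 0.00633). SEC13, like SEH1L a subunit of both complexes, was at 109.9, 108.3 and 131.9 FPKM, and did not pass the FDR of 0.01 (adjusted p = 0.0112), nor did NUP85, at 23.1, 21.7 and 20.4 FPKM (adjusted p = 0.367).

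In the zinc finger cluster around ZNF117, listed with the corepressor TRIM28 of KRAB zinc finger proteins (8 tested), 5 rose from 3 to 7 dpi, with a median of 0.85 and the largest rise in ZNF680 (1.56, limma adjusted p = 1.75e-05). Against sh-Luci-3d 4 rose and 1, ERV3-1, fell. ZNF117 and ERV3-1, which overlap, were lower than sh-Luci-3d at 7 dpi, while ZNF273, ZNF92, ZNF107 and ZNF680 were higher. TRIM28 was at 119.0, 134.5 and 121.1 FPKM (adjusted p = 0.306 from 3 to 7 dpi).

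**Figure D4:**
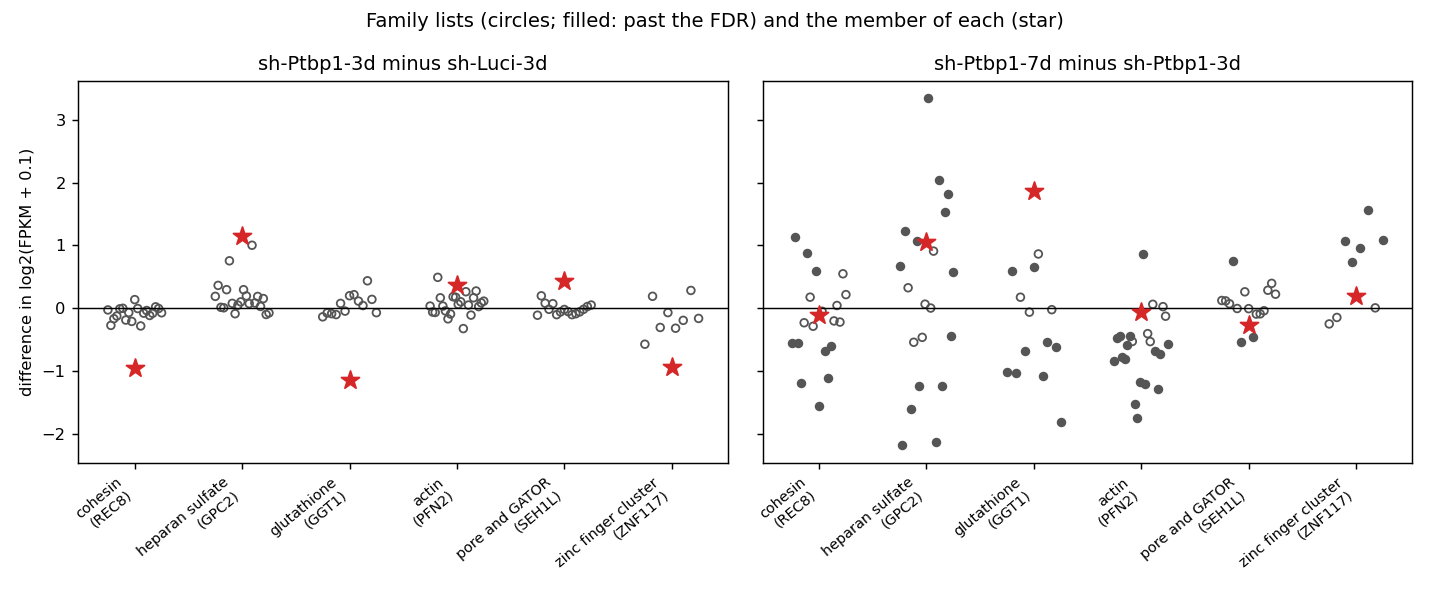
Differences in log2(FPKM + 0.1) (vertical axis) of the tested genes of the 6 family lists (circles, filled where past the FDR of 0.05 on the left or 0.01 on the right) and of the member each list belongs to (red stars), for sh-Ptbp1-3d minus sh-Luci-3d (left) and sh-Ptbp1-7d minus sh-Ptbp1-3d (right). At 3 dpi no circle is filled. From 3 to 7 dpi 57 of 97 circles are filled, beside 35.8% of all genes called, and the star of GGT1 is above its list. The stars are not marked by the FDR. On the left they show the contrast that chose the members, so no test result is given for them there.

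The genes most like each member over the 9 libraries, by Pearson's r of log2(FPKM + 0.1) among 11340 genes whose mean reached 1 FPKM, are given as a description, since the libraries fall into 3 groups that alone can give a high r. The 3 dpi libraries also chose the members, by the contrast in which PTBP1 ranked 1 of all genes. A high r with PTBP1 or PTBP2, or between members, was therefore in part fixed by the choice, and nothing is read from it. For REC8 the nearest was PTBP1 (r = 0.962). For TMEM60 it was PTBP2, the neuronal paralog of PTBP1 (r = 0.964), which was at 6.54, 17.8 and 27.1 FPKM in the 3 groups. TMEM60 was in turn the nearest to PFN2 (r = 0.931), and TMEM60 and REC8 ran opposite to each other (r = -0.965). GPC2 was most like CCDC71 and FAM174A (r = 0.977 for both), GGT1 like VWDE (0.967) and UBXN2A (0.961), ZNF117 like FAM114A2 (0.954) and TRIM4 (0.936). SEH1L was most like OXCT1 (0.952) and MCCC1 (0.938), enzymes of ketone body and leucine breakdown in mitochondria, and AP000356.5 like SLC6A8, the creatine transporter (0.924), and FAM110B (0.916). The second places of TMEM60, REC8 and PFN2 were ACAD11 (0.949), RUFY1 (0.947) and EXO5 (0.930).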

How the data were processed

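RNA of 9 U251 libraries, 3 per group, was sequenced on Illumina HiSeq, and the authors filtered the reads and deposited FPKM values per gene. The submitters' processing notes name HISAT2 and GRCh38; the program that gave the FPKM is not given in the sources used here. The deposited coordinates of assembled loci were used only for positions: 49.6% of 43315 assembled exons equal a GENCODE v29 exon, and 97.6% of 19932 gene symbols are in it, 7 of the 8 genes among them. FPKM keeps no whole reads here, so the depth and its precision are unknown and no count test was used.

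log2(FPKM + 0.1) of the 15551 genes that averaged 0.1 FPKM or more was fitted with limma 3.58.1 (R 4.3.3), using all 9 libraries, 1 mean per group and an intensity trend, and Benjamini-Hochberg adjusted over all genes tested, with an FDR of 0.05 at 3 dpi and 0.01 at 7 dpi. A fold on this scale understates the change of low genes. With 3 libraries against 3 an exact permutation test cannot go below p = 0.1. The code was tested on simulated data. Groups follow the labels.

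The members and lists were chosen with earlier results of these data known. Named were the 8 genes, PTBP1, the 2 genes most correlated with each member, and the cell type markers. Genes or loci overlapping a member or within 10000 bases, or nearest on either side, were looked up too. Only some of these are named in the text. In each list the 2 most abundant and up to 3 past the FDR with the largest difference were named. MAU2, GPC1, GPC4, GPC6, GGT7, CHAC1, EVL, CAP2, DPYD and the genes with a level that share bases with GGT1 were picked with their values known. Promoter sequences are from RefSeq (GRCh38.p14), which held 6 of the 8 genes. The alternatives tried were a pseudocount of 1 or 0.01, dropping the filter or raising it to 1 FPKM, scaling by TPM, by median ratios or by quantiles, a spline correction for GC content and transcript length (5 degrees of freedom, values for 85.7% of genes), 2 groups alone, no trend, a replicate block and leaving out each library (for the lists and neighbours a choice made after seeing the data). Figures were drawn with matplotlib 3.10.9 (Python 3.11.15).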

Additional observations from a re-analysis of the deposited data

How the results depend on the processing

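The number of the 8 genes past the FDR of 0.01 at 7 dpi against sh-Luci-3d was 6, beside 35.6% of all genes. It was 3 with no filter on low values, where 22295 entries were tested and 21% were called. Leaving out 1 library gave 3 to 6. It was 3 without sh-Luci-3d replicate 1 and without sh-Ptbp1-7d replicate 2, beside 29.5% and 27.8% of all genes. From 3 to 7 dpi the number was 3, between 2 and 4 in all alternatives, where 20.6% to 48% of all genes were called. The direction of the day 3 difference was fixed by the choice of the genes, and its size moved by more than the spread between libraries for AP000356.5 (1.44 and 6.16 with pseudocounts of 1 and 0.01, 4.79 with TPM) and, with a pseudocount of 1, for GPC2, REC8 and GGT1 (0.72, -0.73 and -0.77). The cause of the other shifts was not tested. PFN2 from 3 to 7 dpi reversed to 0.035 under TPM (limma adjusted p = 0.746) and 0.035 under quantile normalization (adjusted p = 0.799). Of the 97 listed genes, 0 passed at 3 dpi in the main fit and the 3 alternatives run, 57 to 59 from 3 to 7 dpi and 54 to 56 against sh-Luci-3d. Leaving out 1 library, chosen after seeing the data, gave 0 to 13 at 3 dpi (13 without sh-Luci-3d replicate 3, else 0), 48 to 65 and 49 to 58. For the 23 neighbours it gave 0 to 3 at 3 dpi (3 without sh-Luci-3d replicate 3, else 0), 7 to 12 from 3 to 7 dpi and 5 to 8 against sh-Luci-3d (5 without sh-Luci-3d replicate 1). Over all genes, leaving out 1 library gave 27.3% to 43.4% called from 3 to 7 dpi and 27.8% to 39.9% against sh-Luci-3d. At 3 dpi 22 of 13328 genes passed with GC content and length corrected for, 986 without sh-Luci-3d replicate 3 and 0 to 11 otherwise. AP000356.5 had no GC content and a mean below 1 FPKM, so it has no value under these 2 alternatives.

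With a replicate block the number of members past the FDR was 3 from 3 to 7 dpi and 5 against sh-Luci-3d, beside 34.2% and 34.7% of all genes. PFN2 was lost against sh-Luci-3d (limma adjusted p = 0.0166). Libraries of the same number did not deviate together (r between -0.0185 and 0.0583, and 6 of 18 matches were best with their own number), so the numbers were not taken as pairs.

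With 3 libraries per group and no depth, differences of low genes are the least certain, AP000356.5 before all others. A difference that missed the FDR does not show that the levels were equal. Leaving out sh-Luci-3d replicate 3 moved the 3 dpi difference of AP000356.5 to 4.29, of ZNF117 to -1.16 and of SEH1L to 0.31.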
